A study of Homo sapiens with 12 samples.

Results

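The MCM helicase with CDC45 and GINS was followed as 10 genes, MCM2, MCM3, MCM4, MCM5, MCM6, MCM7, MCM10, CDC45, GINS1 and GINS2, chosen by name and matched to the deposited table by Ensembl identifier. All 10 were found among the 20595 genes of the table. RNA was sequenced from A549 and H1792, human lung adenocarcinoma cell lines that both carry MDM2 amplification, A549 with wild-type p53 (p53 WT) and H1792 with mutant p53. Cells received RG7112, a nutlin-family inhibitor of the MDM2 and p53 interaction, at 1 μM for 48 h, or DMSO for the same time, with 3 replicates of each line and treatment, which made 4 groups and 12 samples. Each p53 status was represented by a single line, so the effect of p53 status and that of the line cannot be told apart. The columns of the table carry another dose of RG7112, 0.1 μM, in their names, and the dose of the sample labels is given here.

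MCM2 to MCM7 form the ring-shaped hexamer that is loaded onto replication origins in G1 phase and unwinds DNA in S phase. The ring becomes active when CDC45 and the GINS complex, of which GINS1 and GINS2 are subunits, join it to form the CMG helicase. MCM10 binds the assembled helicase and is needed for origin firing. Cells loading and firing origins are dividing cells, and mRNAs of these genes are known to be low in quiescent and p53-arrested cells.

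Depth was 2011916 to 6218825 estimated counts per sample, with group medians of 4150211 in A549 with DMSO, 4050643 in A549 with RG7112, 3153316 in H1792 with DMSO and 3805541 in H1792 with RG7112. Levels are given as CPM, the counts of a gene per unit of TMM-scaled library total, and 3 counts, taken as the limit of what a count of 0 allows, stood for 0.464 to 1.43 CPM depending on the sample. These limits cover counting error only. Both lines expressed the keratins KRT8, KRT18, KRT19 and KRT7. The epithelial marker EPCAM was low in both, with at most 9 counts in A549 and 3 to 35 in H1792. CDH1 had 7 to 131 counts in A549 and did not exceed 4 counts in any H1792 sample. NKX2-1, SFTPB and SFTPC did not exceed 2 counts in any sample. NAPSA had 6 to 26 counts in A549 and at most 3 in H1792, and MUC1 had 37 to 150 and 7 to 24. Of the 5 markers of lung epithelium, 3 were thus at or near 0 in both lines. Of the fibroblast markers, COL1A2 and COL1A1 had 2545 to 5924 and 578 to 1299 counts in H1792, and at most 6 and 45 in A549. The other fibroblast markers were low, with at most 8 counts of COL3A1, 3 of DCN and 1 of LUM in any sample. PDGFRB had at most 27 counts in H1792 and 2 in A549. Of the leukocyte markers, CD3E and LYZ had no count and PTPRC at most 1, while CD14 had 28 to 109 counts in A549, and no endothelial marker exceeded 11 counts. CDKN1A, the p53 target that arrests the cycle, changed with RG7112 by 3.58 log2 units in A549 (standard error, SE, 0.70, edgeR adjusted p = 0.0252) and by 0.15 in H1792 (adjusted p = 0.882). MKI67, a marker of cycling cells, had a log2 change of -4.35 in A549 (adjusted p = 0.000283) and changed by 0.05 in H1792 (adjusted p = 0.76). TOP2A, the topoisomerase of cycling cells, and MDM2, itself a p53 target, changed in A549 by -3.98 and 3.00 (adjusted p = 0.0066 and 0.0102) and in H1792 by -0.18 and -0.05 (adjusted p = 0.432 and 0.928). In these bulk samples, fewer cycling cells and less mRNA per cell cannot be told apart.

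Levels were first compared between the 10 genes, per kb of the union of their exons. MCM7 was the highest member in each of the 4 groups, with 119 ± 22.6 CPM per kb in A549 with DMSO and 252 ± 6.75 in H1792 with DMSO (mean ± SD, n = 3, as for all errors of levels). MCM5 followed with 50.8 ± 3.49 in A549 and 56.5 ± 2.24 in H1792, and its range overlapped that of MCM4 (43.5 ± 5.35) in A549. CDC45, with 18.6 ± 1.24 CPM per kb in A549 and 30.5 ± 2.53 in H1792, ranked 4 in A549 and 3 in H1792. In A549 the ranges of CDC45, MCM2 (15.8 ± 12.1) and MCM10 (14.2 ± 1.77) overlapped for MCM2 with both of the others, so that the place of MCM2 could not be resolved, while every CDC45 sample lay above every MCM10 sample. MCM3 stood at 5.33 ± 2.77 CPM per kb in A549 with DMSO and at 16.9 ± 0.30 in H1792 with DMSO. The subunits of the ring, which enter it in equal numbers, were not counted at equal levels. MCM6 stood at 1.03 ± 0.32 CPM per kb in A549 and 2.06 ± 0.23 in H1792 with DMSO, far below MCM5 and MCM7. GINS1 and GINS2 were lower still, with means of 0.51 CPM per kb or less in the DMSO groups. PCNA, the sliding clamp, and FEN1, a flap nuclease, are also used by dividing cells. In A549 with DMSO they had 12.5 ± 0.57 and 1.01 ± 1.02 CPM, not scaled per kb. In the same unit and group, MCM6 had 4.23 ± 1.31 CPM and MCM5 had 372 ± 25.6 CPM. The table holds sums over transcripts, and whether all transcripts of MCM6, GINS1 and GINS2 entered these sums cannot be told from it, so their levels and their places in the order are uncertain. The order of the 10 genes was the same in each group when the length of the longest transcript was used instead.

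In A549, RG7112 lowered 5 of the 8 members that could be tested, MCM4, MCM5, MCM7, MCM10 and CDC45, past the threshold of the study (adjusted p under 0.05 and absolute log2 fold change over 1). The same threshold called 3.01% of the 10739 genes tested lower. All 8 tested members had estimates below 0, with a median log2 fold change of -2.76 beside -0.01 over all genes tested. In 7 of the 8, every RG7112 sample lay below every DMSO sample, which was so for 16.3% of all genes tested. GINS1 and GINS2 had too few counts to be tested. The log2 changes rested on 3 samples a group, and an exact permutation test of a single gene with 3 against 3 samples cannot give a two-sided p below 0.1, a value reached by the 7 members without overlap.

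The activating factors MCM10 and CDC45 showed the widest separation. MCM10 (ENSG00000065328, chr10:13161554-13211104, plus strand, GRCh38) was counted at 84.4, 82.0 and 66.6 CPM in the 3 DMSO samples and at 2.78, 1.90 and 1.63 CPM in the 3 RG7112 samples. Its log2 fold change was -5.13 (SE 0.28, adjusted p = 0.000326), about 35.0-fold lower. CDC45 (ENSG00000093009, chr22:19479459-19520612, plus strand) was counted at 48.9, 55.2 and 54.9 CPM with DMSO and at 2.78, 0.95 and 2.44 CPM with RG7112. Its log2 fold change was -4.56 (SE 0.34, adjusted p = 0.0007). The RG7112 samples held 18, 4 and 6 counts of MCM10 and 18, 2 and 9 of CDC45, against 1021 and 702 in the DMSO samples together, so that 1 sample of CDC45 lay under the limit of 3 counts.

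The 3 most abundant ring subunits also fell, with smaller estimates. MCM5 (ENSG00000100297, chr22:35400063-35425430, plus strand) went from 344, 381 and 392 CPM with DMSO to 37.4, 31.8 and 45.8 CPM with RG7112, a log2 fold change of -3.27 (SE 0.17, adjusted p = 0.000283). MCM7 (ENSG00000166508, chr7:100092728-100101940, minus strand) went from 467.5, 463 and 637 CPM to 77.4, 70.3 and 81.8 CPM, a log2 fold change of -2.77 (SE 0.17, adjusted p = 0.000351). MCM4 (ENSG00000104738, chr8:47960185-47978160, plus strand) went from 332, 261 and 317 CPM to 46.4, 26.6 and 64.7 CPM, a log2 fold change of -2.71 (SE 0.31, adjusted p = 0.00339). In all 3 genes the highest RG7112 sample lay well under the lowest DMSO sample. These 5 calls were made also without any 1 of the 6 samples and without both samples of replicate 3.

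The remaining ring subunits did not pass the test in A549. MCM2 (ENSG00000073111, chr3:127598223-127622436, plus strand) was counted at 120.5, 102 and 9.69 CPM with DMSO and at 10.7, 20.4 and 4.604 CPM with RG7112, so that the DMSO sample of replicate 3 lay inside the range of the RG7112 samples. Its estimate was -2.75 on the log2 scale (SE 0.92, adjusted p = 0.122). Without that DMSO sample the estimate was -3.28 (adjusted p = 0.0275), and without both samples of replicate 3 it was -2.94 (adjusted p = 0.0107), which made 6 members called. DESeq2 called MCM2 as well (adjusted p = 0.00688), and adjusted p ranged from 0.00688 to 0.288 over the alternatives. MCM3 (ENSG00000112118, chr6:52264009-52284881, minus strand) had 11.5, 16.0 and 30.8 CPM with DMSO and 6.03, 0 and 10.3 CPM with RG7112, an estimate of -1.76 (SE 0.88, adjusted p = 0.278). MCM6 (ENSG00000076003, chr2:135839626-135876426, minus strand) had 3.74, 3.23 and 5.72 CPM with DMSO and 2.01, 0.95 and 0.27 CPM with RG7112, an estimate of -1.83 (SE 0.66, adjusted p = 0.146). Its 6 samples held 54 and 16 counts in all, and MCM3 and MCM6 kept apart between treatments in spite of the missed threshold.

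**Figure D1:**
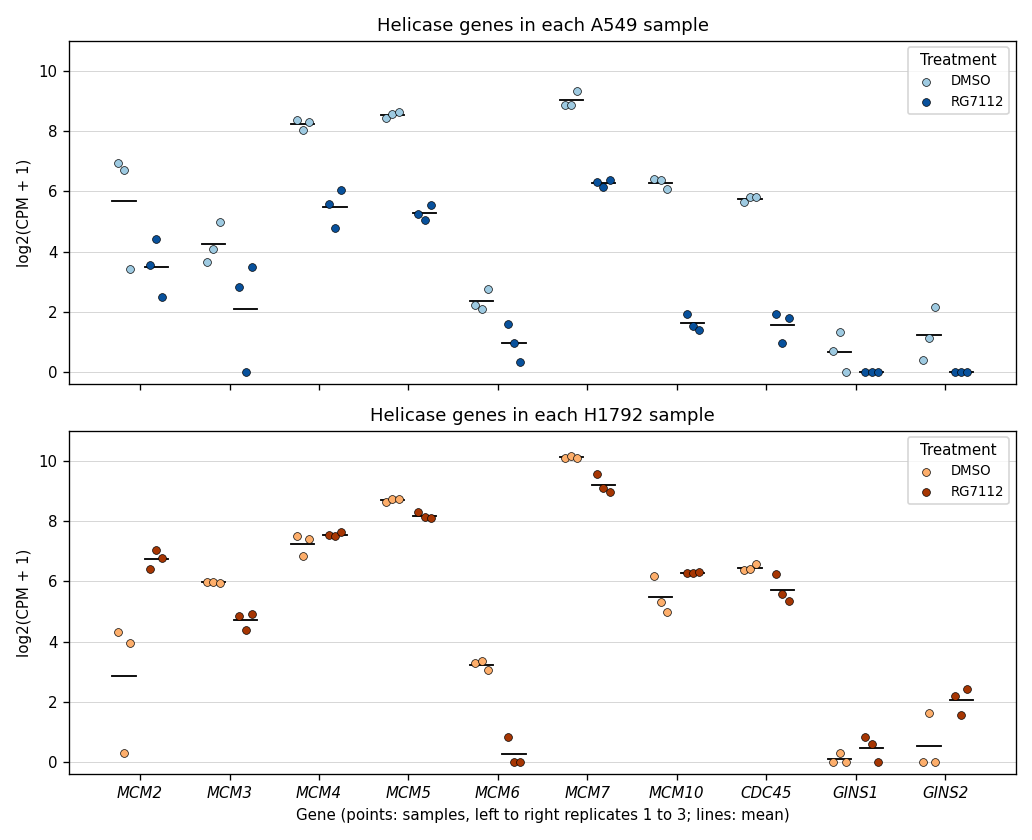
Levels of the 10 genes in each A549 sample (top) and each H1792 sample (bottom), as log2(CPM + 1) on the vertical axis, with points for samples, horizontal lines for the mean of the 3 plotted values and pale and dark points for DMSO and RG7112. MCM10 fell from 66.6 or more CPM to at most 2.78 CPM in A549, whereas MCM2 rose and MCM6 fell in H1792.

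In H1792 the 8 tested members did not move together. MCM2 rose, MCM3 and MCM6 fell past the same threshold, and MCM5 and MCM7 fell by less than 1 on the log2 scale with adjusted p under 0.05. The 2 members called lower stood beside 4.34% of the 9914 genes tested, and the 1 called higher beside 10.3%. Without the fold threshold 4 members were lower, beside 16.5% of all genes tested, and 1 was higher, beside 17.7%. The count of 1 higher member, MCM2, was close to the share over all genes with the fold threshold and not above it without. With library size alone as the scaling, which moved the median of all genes by 0.27, the split turned to 1 called lower (MCM6) and 2 called higher (MCM2 and MCM10), MCM3 missing the fold threshold at -0.93, and without the fold threshold 4 members were lower and 3 higher. Samples of the treatments did not overlap in 5 members that were lower with RG7112 (28.5% of all genes tested) and in 3 that were higher (24.8%). The median log2 fold change of the 8 members was -0.54, beside 0.01 over all genes tested.

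MCM2, whose protein has a histone-binding tail, was counted at 19.0, 0.23 and 14.4 CPM with DMSO and at 83.5, 130 and 109 CPM with RG7112. The DMSO sample of replicate 2 held 1 count although it was the deepest of its group, and every RG7112 sample lay above every DMSO sample. The log2 fold change was 3.42 (SE 0.87, adjusted p = 0.0251), about 10.7-fold higher. Without the DMSO sample of replicate 2 it was 2.72 (adjusted p = 0.0148), and without the DMSO sample of replicate 1 it was 4.22 (adjusted p = 0.0328). The call was lost without the DMSO sample of replicate 3 (adjusted p = 0.0592) and without the RG7112 sample of replicate 2 or 3 (adjusted p = 0.078 and 0.0711). It was lost too with the replicate number as a block in the fit (adjusted p = 0.0745) and with that block and a correction for GC content (adjusted p = 0.0765). Adjusted p ranged from 0.0148 to 0.078 over the alternatives.

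MCM6 was counted at 8.79, 9.22 and 7.40 CPM with DMSO and at 0.77, 0 and 0 CPM with RG7112. The RG7112 samples held 3 counts in all, against 82 in the DMSO samples, a ratio of 39.8 in scaled counts with an exact binomial 95% interval of 13.2 to 197 that covers counting error only. The fitted log2 fold change was -4.98 (SE 0.89, adjusted p = 0.00834), and it was -8.01 without the RG7112 sample of replicate 1, which held all 3 counts. The value of -8.01 thus rests on a group without a count and is no measure of size. MCM3 was counted at 61.5, 62.7 and 60.5 CPM with DMSO and at 27.8, 19.9 and 29.5 CPM with RG7112, a log2 fold change of -1.19 (SE 0.18, adjusted p = 0.00529). With all 12 samples in a single fit, which shares the spread with A549, the call of MCM3 was lost (adjusted p = 0.152).

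MCM7 was counted at 1090, 1141 and 1090 CPM with DMSO and at 751, 550 and 502 CPM with RG7112, a log2 fold change of -0.81 (SE 0.14, adjusted p = 0.00851). MCM5 was counted at 396, 426 and 422.5 CPM with DMSO and at 313.5, 281.5 and 271 CPM with RG7112, a log2 fold change of -0.45 (SE 0.075, adjusted p = 0.00663). Both were lower in each RG7112 sample, but after the correction for GC content the change of MCM5 was -0.08 (adjusted p = 0.399) and that of MCM7 was -0.42 (adjusted p = 0.0404). With the replicate block and the GC correction the call of MCM7 was lost as well (-0.43, adjusted p = 0.0649). CDC45 was counted at 81.2, 84.1 and 94.9 CPM with DMSO and at 74.3, 46.7 and 39.7 CPM with RG7112, an estimate of -0.63 that did not pass (SE 0.24, adjusted p = 0.0839), although the treatments did not overlap. Without the RG7112 sample of replicate 1 its estimate was -0.92 (adjusted p = 0.00778).

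MCM10 and MCM4 had higher levels in each RG7112 sample of H1792 without passing the test. MCM10 was counted at 71.7, 38.7 and 30.9 CPM with DMSO and at 76.6, 76.5 and 77.6 CPM with RG7112, an estimate of 0.78 (SE 0.30, adjusted p = 0.0912). Its DMSO samples were spread far more widely than its RG7112 samples, with SDs of 21.7 and 0.59 CPM. Without the DMSO sample of replicate 1 its estimate was 1.22 (adjusted p = 0.00785). MCM10 also passed with DESeq2 (0.77, adjusted p = 0.049) and with library size alone (1.03, adjusted p = 0.0436). MCM4 was counted at 179, 114 and 167 CPM with DMSO and at 184, 180 and 196 CPM with RG7112, an estimate of 0.36 (SE 0.19, adjusted p = 0.179). With library size alone as the scaling, MCM4 passed at 0.62 (adjusted p = 0.0474).

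**Figure D2:**
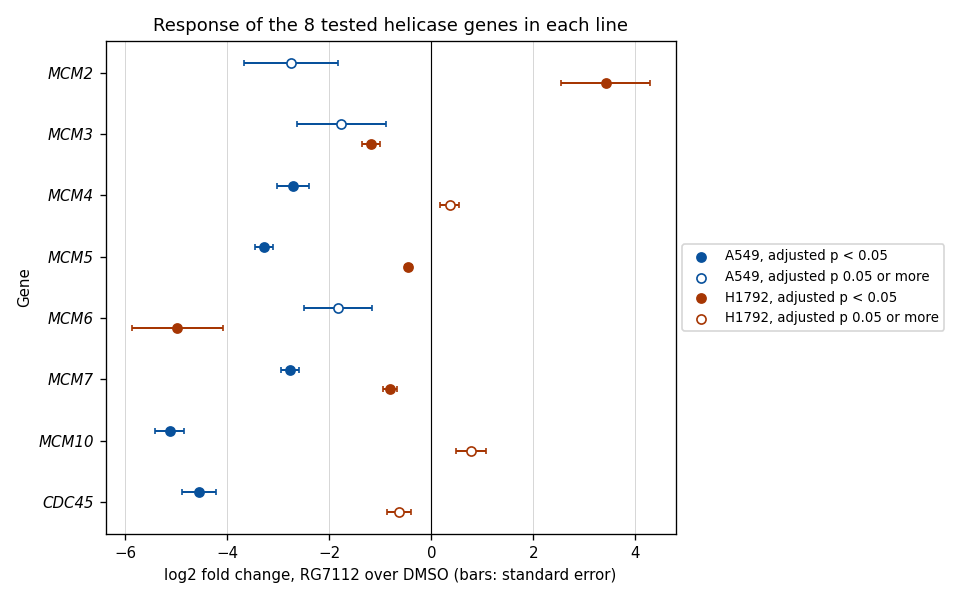
log2 fold change with RG7112 over DMSO (horizontal axis, bars for standard errors) of the 8 tested genes in A549 (blue) and H1792 (brown), with filled points for an adjusted p under 0.05. The A549 estimates lie between -5.13 and -1.76, while those of H1792 run from -4.98 for MCM6 to 3.42 for MCM2.

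GINS1 and GINS2 were at the edge of detection throughout. GINS1 (ENSG00000101003, chr20:25407727-25452628, plus strand) was counted at 0.62, 1.53 and 0 CPM in A549 with DMSO and at 0 in the 3 samples with RG7112. In H1792 no sample held more than 3 counts of GINS1, and no fold is given for it. GINS2 (ENSG00000131153, chr16:85676198-85690073, minus strand) was counted at 0.31, 1.19 and 3.48 CPM in A549 with DMSO, 22 counts in all, and at 0 in the 3 RG7112 samples. Of the 22 counts, 14 came from the DMSO sample of replicate 3, and no fold is given for GINS2 in A549. In H1792, GINS2 was counted at 0, 2.07 and 0 CPM with DMSO and at 3.61, 1.95 and 4.41 CPM with RG7112, and the treatments overlapped. GINS3 and GINS4, which complete the GINS complex, were counted at higher levels, with 43.6 ± 13.1 and 12.9 ± 6.51 CPM in A549 with DMSO and 14.4 ± 6.06 and 3.36 ± 2.24 CPM in H1792 with DMSO.

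The responses of the lines were compared directly, as the response of A549 minus that of H1792 in a fit over all 12 samples. The difference was below 0 with adjusted p under 0.05 in 7 of the 9 members tested, MCM2, MCM4, MCM5, MCM7, MCM10, CDC45 and GINS2, beside 11.4% of the 11666 genes tested. MCM2 differed by -6.09 on the log2 scale (SE 1.44, adjusted p = 0.0146), MCM10 by -5.82 (SE 0.44, adjusted p = 1.87e-05) and CDC45 by -3.84 (SE 0.40, adjusted p = 0.000186). MCM4, MCM5 and MCM7 differed by -2.99, -2.75 and -1.89, with adjusted p = 0.000548, 6.05e-06 and 0.000526. For GINS2 the fitted difference of -7.76 rested on groups at or near 0 and is no measure of size, and its adjusted p of 0.0387 rose to 0.0502 or more without 10 of the 12 samples, each left out in turn. MCM3 had a difference of -0.48 (SE 0.87, adjusted p = 0.735), and an interval of 2 SE either side of it reached past 1 log2 unit on both sides of 0. MCM6 had a difference of 3.21 (SE 1.23, adjusted p = 0.0849), and without the H1792 RG7112 sample of replicate 1 it was 6.25 (adjusted p = 0.0151). That fit left no count of MCM6 in H1792 with RG7112, so 6.25 is no measure of size either.

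Summed over the 10 genes, the members took 1433 ± 77.4 CPM in A549 with DMSO and 183 ± 29.3 with RG7112. In H1792 the sums were 1891 ± 14.8 and 1343 ± 152 CPM. Without TMM scaling, the members held 0.172, 0.1574 and 0.1661% of all counts in H1792 with DMSO. With RG7112 they held 0.1598, 0.1434 and 0.139%, so the ranges overlapped and the size of the H1792 fall depended on the scaling. In A549 the mean share was 0.1496% with DMSO and 0.01819% with RG7112. The H1792 mean of MCM7 alone went from 1107 to 601 CPM, while those of MCM2, MCM4, MCM10, GINS1 and GINS2 rose. The make-up of the MCM2 to MCM7 counts also differed between groups. MCM7 held 36.6 to 45.7% of them in A549 with DMSO and 39.4 to 46.8% with RG7112, ranges that overlap. In H1792 it held 61.9 to 65.1% with DMSO and 45.3 to 55.2% with RG7112, ranges that do not. The share of MCM5 stayed between 22.6 and 24.5% in all 6 H1792 samples, while that of MCM4 was 6.49 to 10.2% with DMSO and 13.5 to 17.7% with RG7112. MCM2 held 0.013 to 1.08% with DMSO and 6.14 to 11.2% with RG7112 in H1792. In A549 the share of MCM2 was 8.33 and 9.43% in replicates 2 and 1 with DMSO and 0.696% in replicate 3. The MCM5 share in A549 was 26.9 to 31.1% with DMSO and 20.8 to 22.1% with RG7112, ranges that do not overlap. That of MCM4 in A549 did overlap, with 21.3 to 26.0% and 17.7 to 31.2%. Shares of counts favour long transcripts and are given to compare samples, not subunits.

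**Figure D3:**
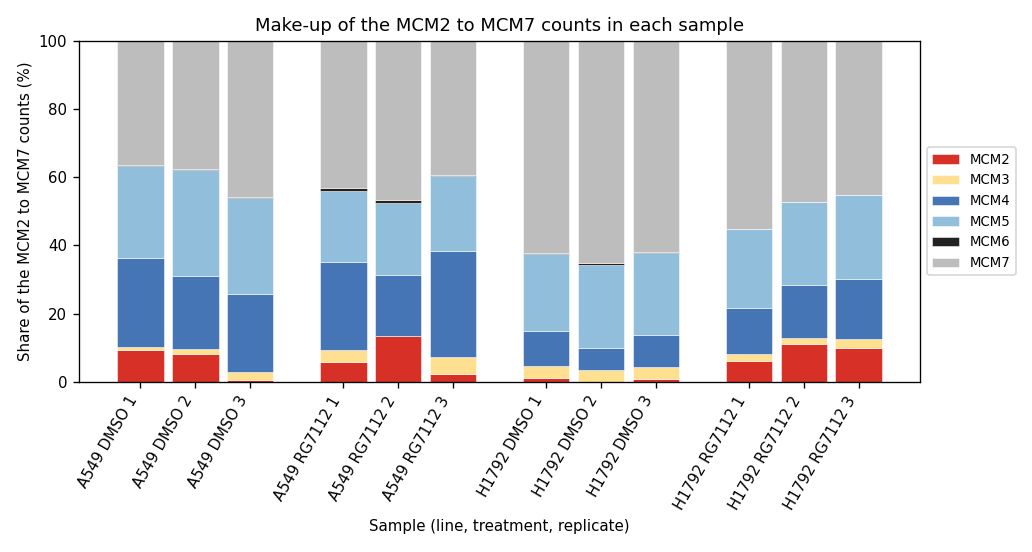
Share of the summed MCM2 to MCM7 counts held by each subunit (vertical axis, percent) in each of the 12 samples, 1 bar a sample. In H1792 the MCM7 share was 61.9 to 65.1% with DMSO and 45.3 to 55.2% with RG7112, and the MCM2 share was at most 1.08% with DMSO and at least 6.14% with RG7112.

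With DMSO alone, A549 and H1792 differed in 3 of the 9 tested members past both thresholds. MCM3 and MCM7 were lower in A549, by -1.66 (SE 0.61, adjusted p = 0.0433) and -1.08 (SE 0.16, adjusted p = 0.00027) on the log2 scale, beside 14.5% of all genes tested. MCM2 was higher in A549, by 2.86 (SE 1.02, adjusted p = 0.0386), beside 20.4% of all genes tested. With 9 genes tested, these counts of 2 and 1 stood close to the shares over all genes. They are no sign that the members differ between the lines more than other genes do. The samples of the lines did not overlap for MCM3 and MCM7 but did for MCM2, whose lowest A549 sample (9.69 CPM) lay below the highest H1792 sample (19.0 CPM). MCM4 and MCM10 were 0.99 and 0.72 higher in A549 and CDC45 0.71 lower (adjusted p = 0.00825, 0.0473 and 0.0366). MCM5 differed by -0.15 (SE 0.12, adjusted p = 0.316), MCM6 by -1.003 (SE 0.70, adjusted p = 0.261) and GINS2 by 1.00 (adjusted p = 0.51). The count of 3 became 0 without the A549 DMSO sample of replicate 1 and 1 without that of replicate 2 or the H1792 DMSO sample of replicate 2. With library size alone as the scaling, 0 members were called lower in A549 and 2 higher, MCM2 and MCM4.

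Of 27 other genes of origin licensing and helicase activation, 24 could be tested in A549 and all 24 had estimates below 0, with a median of -1.77. RG7112 lowered 10 of them past the threshold, CDC6, CDC7, CDT1, CLSPN, DBF4B, GMNN, MCM8, RECQL4, TICRR and TIMELESS, beside 3.01% of all genes tested. CDC6, the ATPase that helps load the MCM ring, went from 67.9, 56.9 and 29.6 CPM to 3.55, 1.43 and 2.44 CPM, a log2 fold change of -4.26 (SE 0.45, adjusted p = 0.00249). CDT1, its partner in loading, went from 19.9, 25.2 and 16.7 CPM to 1.39, 3.33 and 2.98 CPM, a log2 fold change of -3.07 (SE 0.41, adjusted p = 0.00614). Of the kinase that starts the helicase, CDC7 changed by -2.28 (SE 0.41, adjusted p = 0.0172), its activator DBF4B by -2.46 (SE 0.19, adjusted p = 0.000881) and its other activator DBF4 by -1.81 without passing (adjusted p = 0.097). TICRR and RECQL4, which take part in bringing CDC45 or GINS to the ring, changed by -3.12 and -2.52 (adjusted p = 0.0377 and 0.0066). CLSPN and TIMELESS, fork proteins of the replication checkpoint, changed by -2.72 and -1.73 (adjusted p = 0.00427 and 0.00142), and MCM8, an MCM-related helicase of DNA repair, by -2.29 (adjusted p = 0.00208). GINS3 and GINS4 had estimates of -1.40 and -1.59 that did not pass (adjusted p = 0.0577 and 0.103).

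In H1792 the same list had a median of 0.31, with 16 of 24 tested genes above 0, and 1 gene was called in each direction, beside 4.34% of all genes tested for the lower and 10.3% for the higher call, so that neither count stood above the share over all genes. DBF4 rose from 11.6, 7.37 and 5.66 CPM to 18.6, 26.5 and 29.3 CPM, a log2 fold change of 1.66 (SE 0.33, adjusted p = 0.0109). TICRR fell from 52.8, 29.95 and 29.2 CPM to 11.9, 11.7 and 11.6 CPM, a log2 fold change of -1.59 (SE 0.28, adjusted p = 0.00784). The count of 2 became 5 without the DMSO sample of replicate 1, 4 without the RG7112 sample of replicate 1 and 6 with library size alone as the scaling. CDC6, CDC7 and GINS3 had estimates of 0.81, 1.03 and 0.90 that did not pass, with adjusted p = 0.0563, 0.086 and 0.0664. The response of A549 minus that of H1792 was below 0 with adjusted p under 0.05 in 12 of the 26 genes tested, beside 11.4% of all genes.

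Of 23 genes of synthesis at the fork (polymerases, primase, sliding clamp and its loader, RPA, FEN1 and LIG1), 6 of 18 tested were called lower in A549, beside 3.01% of all genes tested, and the median of the 18 was -1.28. In H1792, 1 of 21 tested was called lower, the polymerase subunit POLE, close to the 4.34% of all genes, with a median of 0.16 over the 21. The difference between the lines was below 0 in 10 of 21, beside 11.4% of all genes, and above 0 in 1, POLD4, beside 10.4%, at an adjusted p under 0.05. The lower calls among members, partners and fork genes in A549 were thus 5 of 8, 10 of 24 and 6 of 18, and differences between these lists were not tested.

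**Figure D4:**
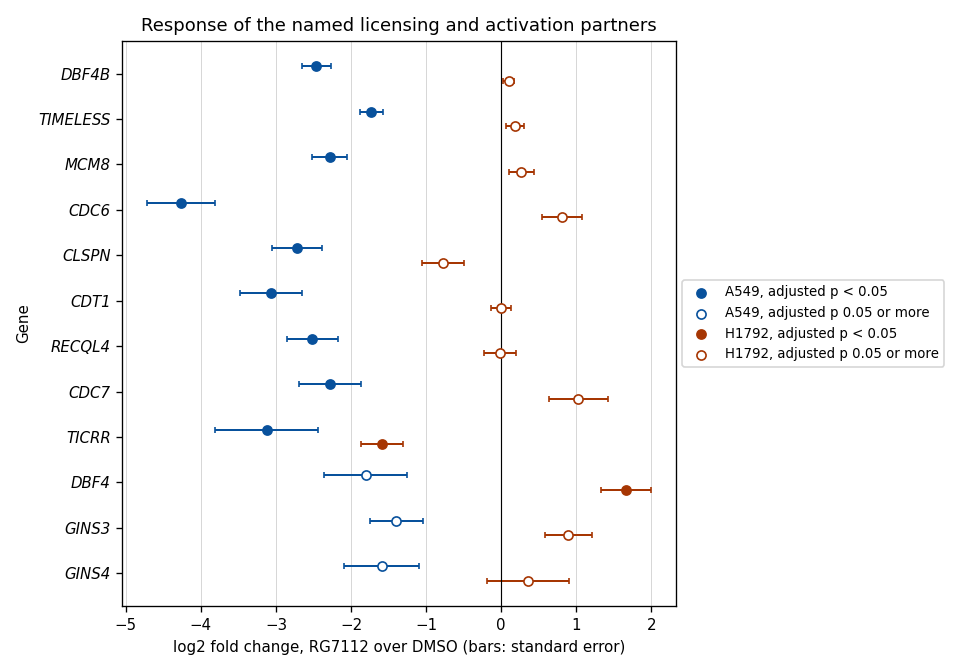
log2 fold change with RG7112 over DMSO (horizontal axis, bars for standard errors) of 12 licensing and activation partners in A549 (blue) and H1792 (brown), with filled points for an adjusted p under 0.05. The A549 estimates of all 12 lie below 0, whereas in H1792 TICRR (-1.59) and DBF4 (1.66) are the filled points, on opposite sides of 0.

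Several members share their start region with a gene on the other strand, and the values of those genes are given beside them. MCM4 and PRKDC start 2 bp apart, MCM2 and TPRA1 44 bp, CDC45 and UFD1 244 bp and MCM7 and AP4M1 391 bp apart in GENCODE v29 (GRCh38), each pair in divergent orientation. TPRA1 and AP4M1 also overlap the span of their helicase gene on the opposite strand, as GSE1 does with GINS2. PRKDC, the catalytic subunit of DNA-dependent protein kinase, was counted at 74.1, 71.7 and 105 CPM in A549 with DMSO and at 85.7, 76.5 and 70.7 CPM with RG7112, an estimate of -0.10 (SE 0.20, adjusted p = 0.81). UFD1 changed by -0.19 (SE 0.16, adjusted p = 0.54), AP4M1 by 0.16 (SE 0.26, adjusted p = 0.754) and TPRA1 by 0.63 (SE 0.37, adjusted p = 0.37) in A549. An interval of 2 SE either side of the estimates of PRKDC, UFD1 and AP4M1 did not reach the falls of MCM4, CDC45 and MCM7.

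In H1792, AP4M1 went from 35.9, 46.5 and 28.3 CPM to 15.5, 13.3 and 9.52 CPM, a log2 fold change of -1.46 (SE 0.25, adjusted p = 0.00769), in the same direction as MCM7. PRKDC changed by -0.66 (adjusted p = 0.0169), UFD1 by -0.34 (adjusted p = 0.0165) and TPRA1 by -0.85 without passing (adjusted p = 0.27), so that TPRA1 and MCM2 had estimates of opposite sign in both lines. GSE1 had estimates of -0.90 in A549 and 0.40 in H1792 (adjusted p = 0.105 and 0.121). The library kit keeps the strand, but whether it was used in counting is not given in the sources used here, so reads of the overlapping stretches of MCM2 and TPRA1, MCM7 and AP4M1, and GINS2 and GSE1 may not be told apart. The miRNA genes MIR25, MIR93 and MIR106B lie within MCM7 on its own strand and were not analysed here.

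**Figure D5:**
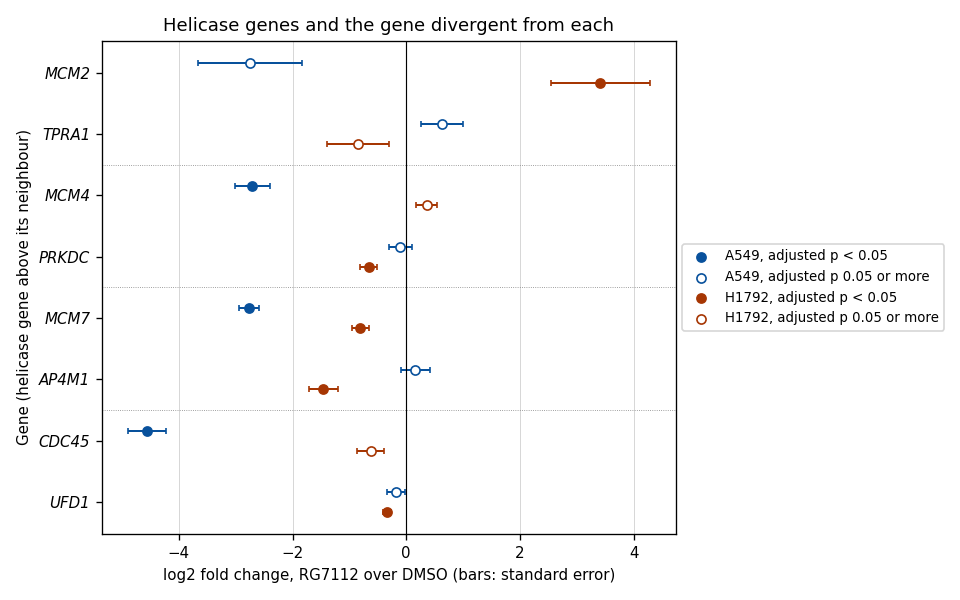
log2 fold change with RG7112 over DMSO (horizontal axis, bars for standard errors) of 4 helicase genes, each above the gene that starts next to it on the other strand, in A549 (blue) and H1792 (brown), with filled points for an adjusted p under 0.05. In A549 the neighbours lie between -0.19 and 0.63 while MCM4, MCM7 and CDC45 lie at -2.71, -2.77 and -4.56.

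Across the 12 samples, the genes whose log2 CPM was most like the mean of the standardised log2 CPM of the 9 members tested in all samples were CDCA3 (Pearson r = 0.994), PRC1 (0.990), MELK (0.988), ENSG00000204197 (0.988, no symbol in the tables used) and KIF18B (0.988). PRC1 and KIF18B act on the mitotic spindle and MELK is a kinase of dividing cells. CDCA3 was counted at 168, 179 and 201 CPM in A549 with DMSO, at 8.19, 4.28 and 9.75 CPM with RG7112, and at 161 to 218 CPM in the 6 H1792 samples. The 12 samples fall into A549 with RG7112 and the rest, so these values describe that split and carry no test.

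Promoter sequence was read for the members from RefSeq (GRCh38.p14) in windows from 250 bases before to 50 bases after each start. Of the 10 members, 8 had a window, and MCM4 and MCM5 had none. MCM7 and CDC45 had 3 windows each, for 3 starts, and the others 1, which made 12 windows. Both strands were searched for 4 forms of the E2F site, the form TTCCCGC together with the form spelled TTCGCGC, a further form spelled TTGCCGC and a last form spelled TTGGCGC, for the CHR element of cell cycle genes, which is written TTTGAA or, in its other form, TTCGAA, and for the CCAAT box. In the 250 bases before the start, an E2F form was found in 4 of the 8 members, MCM3, MCM6, MCM7 and GINS2, beside 13.0% of 27305 genes. A CCAAT box was found in 7 of the 8, MCM2 being the exception, beside 37.0% of genes, and a CHR element in 1, MCM6, beside 17.2%. With the 50 bases after the start included, the members with an E2F form, a CCAAT box and a CHR element were 6, 7 and 1, beside 15.3, 39.7 and 19.5% of genes. The members gained for E2F were MCM2 and GINS1. A match is a description of the letters and no evidence of binding.

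The full 250 bases are shown for MCM6, which lost its counts in H1792 and had 4 E2F matches, and for MCM10, which fell most in A549 and had no E2F match in this window. They are written 5′ to 3′ on the strand of the gene, with matches to any of the motifs in capitals. The MCM6 stretch is chr2:135876444-135876693 (minus strand) and the MCM10 stretch chr10:13161308-13161557 (plus strand).
MCM6: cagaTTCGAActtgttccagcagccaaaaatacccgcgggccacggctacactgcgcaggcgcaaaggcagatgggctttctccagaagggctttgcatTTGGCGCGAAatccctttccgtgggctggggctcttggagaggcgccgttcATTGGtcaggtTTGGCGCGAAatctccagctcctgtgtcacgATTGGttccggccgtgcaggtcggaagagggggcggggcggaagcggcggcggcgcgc
MCM10: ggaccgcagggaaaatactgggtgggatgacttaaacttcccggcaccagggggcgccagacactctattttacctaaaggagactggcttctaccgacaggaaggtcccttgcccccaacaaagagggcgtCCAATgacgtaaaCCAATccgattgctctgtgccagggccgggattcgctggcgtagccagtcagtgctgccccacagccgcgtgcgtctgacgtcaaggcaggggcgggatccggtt

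In MCM6 the E2F matches form 2 overlapping pairs, a TTGGCGC on the strand of the gene and a TTCGCGC on the other, at positions -151 and -148 and again at -89 and -86, where -1 is the last base before the start. The CHR match lies at position -246. MCM10 has 2 CCAAT boxes, at positions -118 and -105. Short stretches around the E2F matches of MCM3 (chr6:52284899-52284925 and chr6:52284749-52284775, minus strand), MCM7 (chr7:100101568-100101594 and chr7:100101398-100101415, minus strand) and GINS2 (chr16:85688969-85688995, minus strand) and around a CCAAT pair of CDC45 (chr22:19479801-19479829, plus strand) are shown to compare the letters, with the matches in capitals. MCM7 and CDC45 are shown for 1 start each, and another start of MCM7 has the form TTCGCGC at position -164 and, at position -140, the form TTCCCGC, both on the strand of the gene and not shown.
MCM3, position -173: gatggtacgtTTCCCGCcaccgcgggg
MCM3, position -23: acctttggtgGCGGGAAgagttcggaa
MCM7, position -187: agctcggaccGCGGGAAacccggcgcc
MCM7, position -8: ggggcgacgtTTCGCGCc
GINS2, position -31: tctcgccgtgGCGGGAAaacggcggcc
CDC45, position -112: gccgcctCCAATgtggcCCAATcagaaag

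The form TTCCCGC is shared by MCM3, MCM7 and GINS2, on the strand of the gene in 1 match of MCM3 and in the match of MCM7 not shown, and on the other strand (read as GCGGGAA) in the remaining 3. CDC45 and MCM10, the members with the largest falls in A549, each carry closely spaced CCAAT boxes and none of the searched E2F forms in the 250 bases before the start. More than 1 CCAAT box is also found in MCM3, MCM6 and MCM7, as at positions -120 and -84, -100 and -58, and -95 and -51. E2F-like letters other than the searched forms were not looked for. Of the 3 genes with an E2F form there that were tested in A549, MCM7 passed and MCM3 and MCM6 did not, and of the 3 without, MCM10 and CDC45 passed and MCM2 did not. With these 6 genes, no relation between motif and response was tested.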

How the data were processed

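The authors selected poly-A RNA, estimated transcript abundances with kallisto 0.45.0 on the Ensembl GRCh38 transcriptome and added them up to genes. They deposited estimated counts (expected counts) per gene as whole numbers, without normalization between samples. The labels give reads of 38 bases and the paper a longer length. All 12 columns were used, and each carried 1 sample's line, treatment and replicate.

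For each line, genes were filtered with filterByExpr (minimum count 10, minimum total count 15), scaled by TMM and tested with the quasi-likelihood F test of edgeR 4.0.16 in R 4.3.3, with Benjamini-Hochberg adjustment over all genes tested. Lines were compared in a fit over all 12 samples. CPM were scaled over all 12 samples. GENCODE v29 gave positions, lengths and GC content. Alternatives included DESeq2 1.42.0, limma 3.58.1, other scalings and filters, a replicate block, a correction for GC content (loess, span 0.5) and leaving out each sample. The procedure was also run on simulated counts with changes planted in genes above a minimum level. That run does not speak to genes near 0 counts or to outlying replicates.

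The members and gene lists were chosen with earlier results of these data known. Named were all 10 members, the partners called in a line (the 8 with the smallest p where more were called) with GINS3 and GINS4, overlapping or divergent neighbours, the 5 genes most like the members, and 4 readouts of p53 and cycling. Partners whose responses differed between the lines were named too. Nothing in the labels says that replicates were separate cultures, so p-values measure the spread between these samples. The counts carry no molecular identifiers, so PCR copies cannot be set apart.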

Additional observations from a re-analysis of the deposited data

Results flagged for a closer look

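The values below were singled out because the response of A549 differed from that of H1792 in a direct test over all 12 samples (edgeR, adjusted p under 0.05), given as the log2 response of A549 minus that of H1792. Among the helicase genes they were -6.09 for MCM2, -5.82 for MCM10, -3.84 for CDC45, -2.99 for MCM4, -2.75 for MCM5, -1.89 for MCM7 and -7.76 for GINS2, the last from groups at or near 0. In MCM2 the estimates of the lines had opposite signs (-2.75 in A549 and 3.42 in H1792). The A549 estimate of MCM2 did not pass (adjusted p = 0.122) and its treatments overlapped there. Its H1792 call was lost in 5 of 15 alternatives. The estimates of MCM5 and MCM7 were below 0 in both lines. In H1792 the call of MCM5 was lost with the GC correction (-0.08, adjusted p = 0.399). That of MCM7 was lost with the GC correction and the replicate block (-0.43, adjusted p = 0.0649). Among the partners they were -4.99 for CDC6, -3.40 for DBF4, -3.23 for CDC7, -3.02 for CDT1, -2.95 for GMNN and -2.49 for DBF4B. The values of the remaining partners were -2.48 for MCM8, -2.42 for RECQL4, -2.22 for GINS3, -1.99 for TIPIN, -1.87 for CLSPN and -1.83 for TIMELESS. Among the neighbouring genes they were -1.22 for GSE1, which overlaps GINS2 (adjusted p = 0.0331), and 1.70 for AP4M1, which starts next to MCM7 (adjusted p = 0.0107).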

How the results depend on the processing

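Of 649 alternative values for single helicase genes, 564 kept their direction and their side of an adjusted p of 0.05, the fold threshold left aside, 66 lost and 14 gained significance and 5 changed sign. The sign changes were MCM3 in the difference of the responses without the A549 DMSO sample of replicate 3 (0.0113, range -1.11 to 0.0113 over single samples left out), MCM5 in the lines with DMSO under library size alone (0.10) and with at least 10 counts in every sample (0.0108), and GINS2 there without the A549 DMSO sample of replicate 3 or both A549 samples of replicate 3 (-0.018 and -0.0189, range -0.018 to 5.78 over single samples left out). With at least 10 counts in every sample, which left 3 to 6 members to test, 3 were called in A549 with or without the fold threshold, 1 in H1792 (3 without the fold threshold), 3 in the difference and 1 between the lines with DMSO. That setting left 6 partners called in A549. Without the fold threshold 5 members passed in H1792, beside 16.5% of all genes tested lower and 17.7% higher. Between the lines with DMSO 6 of 9 members passed, 3 lower and 3 higher in A549. There, 22% of all genes tested were lower and 25.6% higher. At an adjusted p under 0.01, 1 member was called between the lines and 1 partner in H1792. Leaving out 1 sample gave 5 to 6 members in A549, 2 to 4 in H1792 (4 to 6 without the fold threshold), 6 to 7 in the difference and 0 to 4 between the lines, and 7 to 9, 2 to 5 and 12 to 15 partners in A549, H1792 and the difference. Partners called in H1792 were 6 with library size alone, 4 with the GC correction and 1 with the replicate block, with or without the GC correction.

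Replicate numbers were not taken as pairs, because the methods of the paper name none. Deviations of same-numbered samples correlated at 0.112, 0.059 and 0.273 in A549, above the mean of -0.072 between different numbers. In H1792 they correlated at -0.022, -0.001 and 0.003, beside a mean of 0.003 between different numbers. Whether the A549 samples were paired is therefore not settled, and values with the replicate number as a block are given. With the replicate block 6 members were called in A549 (MCM2 added) and 2 in H1792 (MCM2 lost, adjusted p = 0.0745), and with the block and the GC correction 2 members had an adjusted p under 0.05 in H1792. Library size alone moved the median of all genes by 0.27 in H1792 and -0.37 in the difference. MCM6, GINS1 and GINS2 had few counts, which limits the precision of their values. The causes of these changes were not tested.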
